A study of Mus musculus with 12 samples.

Results

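The 8 genes described here code for enzymes of haem synthesis: Alas1, Alas2, Alad, Uros, Urod, Cpox, Ppox and Fech. They were taken by name with all of their probe sets, 19 of the 45037 probe sets on the array that are not controls, and 8 of the 18193 genes that could be tested. Yolk sacs of mouse embryos were profiled in 4 groups of 3 Affymetrix Mouse 430 2.0 arrays each: Hypb-/- at E10.5, Hypb+/+ at E10.5, Hypb-/- at E9.0 and Hypb+/+ at E9.0, where E counts days of embryonic development. Hypb is the gene now named Setd2, a histone H3 lysine methyltransferase. All groups had the mixed strain 129Sv/C57BL/6, and every array was hybridised with RNA from 1 pool of 4 yolk sacs of a single genotype. The design text states that knockout embryos had no severe visible defect at the earlier stage and were close to death at the later one. Which part of the gene was deleted, and the sex of the embryos, are not given in the sources used here. Each group is called below by its genotype, knockout or wild type, and its stage.

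Haem is the iron-containing ring that binds oxygen in haemoglobin and carries electrons in cytochromes. Its synthesis starts in the mitochondrion, where glycine and succinyl-CoA are joined to 5-aminolevulinate, runs through a series of porphyrinogens in the cytosol, and returns to the mitochondrion for the last oxidations and for the insertion of iron. Red blood cells use their own enzyme for the first step, ALAS2, while other cells use ALAS1. The yolk sac is the site of the first red blood cells of the mouse embryo, and its outer layer, the visceral endoderm, contains haem proteins of its own. The enzyme of the third step of the pathway is not analysed here.

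The DNA just upstream of the start of transcription is shown for the 3 members whose level varied most over the arrays, Cpox, Alad and Alas2, and for Uros, which like Cpox and Alas2 holds a sequence match described here. These 250-base stretches end at the base before a start listed by RefSeq (mouse genome build GRCm38.p6), and are written 5′ to 3′ along the gene. They were searched on both strands for 4 hexamers that GATA factors such as the red blood cell regulator GATA1 prefer. The first of these was AGATAA and the second was AGATAG. The third was TGATAA and the fourth was TGATAG. Capitals mark each match, which on these strands reads as the reverse complement. The Alas2 stretch lies at chrX:150547167-150547416, plus strand, the Cpox stretch at chr16:58669958-58670207, plus strand, the stretch of the second listed Uros start at chr7:133702501-133702750, minus strand, and the stretch of the first listed Alad start at chr4:62520064-62520313, minus strand.
Alas2: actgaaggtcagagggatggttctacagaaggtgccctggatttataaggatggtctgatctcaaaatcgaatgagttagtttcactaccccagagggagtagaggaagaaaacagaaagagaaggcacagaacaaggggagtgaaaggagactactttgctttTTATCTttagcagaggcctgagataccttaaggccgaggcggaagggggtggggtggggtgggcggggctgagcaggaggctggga
Cpox: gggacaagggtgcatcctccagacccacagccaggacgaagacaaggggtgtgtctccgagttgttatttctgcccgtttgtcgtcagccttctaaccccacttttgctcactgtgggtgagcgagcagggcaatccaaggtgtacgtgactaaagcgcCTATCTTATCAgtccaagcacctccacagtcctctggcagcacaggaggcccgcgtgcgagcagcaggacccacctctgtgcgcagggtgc
Uros: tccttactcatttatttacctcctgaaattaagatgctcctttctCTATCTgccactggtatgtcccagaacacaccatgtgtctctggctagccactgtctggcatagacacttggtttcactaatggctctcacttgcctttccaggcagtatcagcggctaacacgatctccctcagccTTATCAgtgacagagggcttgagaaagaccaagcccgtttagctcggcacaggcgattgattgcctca
Alad: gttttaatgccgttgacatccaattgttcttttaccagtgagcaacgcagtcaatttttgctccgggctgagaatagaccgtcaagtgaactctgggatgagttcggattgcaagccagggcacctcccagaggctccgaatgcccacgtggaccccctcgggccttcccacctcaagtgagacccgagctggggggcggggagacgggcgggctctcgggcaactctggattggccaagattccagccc
In the Alas2 stretch, AGATAA lies 86 to 81 bases before the start. In the Cpox stretch, AGATAG at 91 to 86 and TGATAA at 86 to 81 bases before the start overlap by a single base. The Uros stretch holds AGATAG at 205 to 200 and TGATAA at 68 to 63 bases before the start. RefSeq starts were listed for 7 of the 8 genes, 10 starts in all, and 3 of the 10 stretches held at least 1 of the 4 hexamers. The Alad stretch held none. Of all 32851 stretches of this length in the table, 26.5% held at least 1, so a match is common, and it describes the letters only, not a site in use.

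The authors deposited log2 expression values from RMA (robust multi-array average), a method that returns 1 value per probe set and array with no detection call. All levels and differences below are on that log2 scale, so a difference of 1 is a doubling. Values were compared with limma over all genes or probe sets at once, and a call is an adjusted p (Benjamini-Hochberg) under 0.05. Each gene was represented by its probe set with the highest mean. Setd2 checked the labels: its level was 7.77, 7.81 and 8.07 on the knockout E10.5 arrays, against 8.77, 8.70 and 8.66 on the wild type E10.5 arrays, and 7.54, 7.99 and 7.53 on the knockout E9.0 arrays, against 9.08, 9.03 and 8.83 on the wild type E9.0 arrays. All knockout arrays were below all wild type arrays at each stage, by -0.83 at E10.5 (limma adjusted p = 0.00294) and by -1.29 at E9.0 (adjusted p = 0.00207). Spearman correlation between arrays was at least 0.975. Control probe sets set array 3 of each group apart from arrays 1 and 2, with bioC minus bioB at -0.10 for the knockout and -0.02 for the wild type at E9.0, against 1.42 to 1.53 on all other arrays, and dap 3′ minus 5′ at 1.87 for the knockout and 1.85 for the wild type at E10.5, against at most 1.44 on the other E10.5 arrays. No label names a batch, and array 3 holds both genotypes, so values of an enzyme within arrays 1 and 2 are given where its call differs there. Markers of other cell types moved too, and their part in the results below was not tested. Of 8 heart marker genes, 4 rose in the knockout at E10.5 (3 without its array 1), with a median of 1.64 over the list (0.97 without that array). Their mean log2 level was 6.12 to 7.45 over the knockout arrays and 5.19 to 5.38 over the wild type arrays. At E9.0 none of the 8 passed the test, with mean levels of 5.06 to 5.44 in the knockout and 5.16 to 6.34 in the wild type. Of 10 mesothelium and mesenchyme markers, 4 rose in the knockout at E10.5, also without its array 1, with a median of 0.40 over the list and mean levels of 9.70 to 10.29, against 9.40 to 9.65 for the wild type arrays. Of 10 endothelium markers 1 rose at E10.5 (0 without array 1 of the knockout), with a median of 0.39 and mean levels of 7.64 to 8.15, against 7.26 to 7.62 for the wild type arrays. The sacs hold several cell types, so fewer cells of a type and less RNA per cell cannot be told apart. The repeats are separate pools, and with 3 of them per group the number of arrays limits the precision.

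At E10.5, no haem enzyme passed the test between knockout and wild type, 0 of 8 genes, while 7.28% of all genes tested did. The estimates nevertheless leaned one way: 7 of the 8 were lower in the knockout, against 52.6% of all genes, and the median difference over the 8 was -0.30, against -0.01 over all genes. That median was -0.17 without array 1 of the knockout E10.5 group. Over the 19 probe sets, 15 were lower. Probe sets of the same gene are not separate members, and 3 of the 19 had a mean below 5. No share over all probe sets is given for the sign counts here and below. At E9.0 again 0 of 8 passed, beside 1.18% of all genes. There 7 of the 8 were higher in the knockout, against 48.7% of all genes, with a median of only 0.06 (0.0058 to 0.14 without single arrays). Over the 19 probe sets, 11 were higher. At an unadjusted p under 0.05, 1 of the 8 differed at E10.5, Fech, and 0 at E9.0, beside 3680 and 2149 of the 18193 genes. The knockout effects at the 2 stages were also compared directly, and this difference was called for 0 of the 8 genes, beside 0.187% of all genes. All 8 estimates of it were below 0, as were 50.4% of those of all genes, with a median of -0.33 (-0.45 to -0.19 without single arrays), while 14 of the 19 probe sets were below 0. This difference is built from the effects at the 2 stages, so its signs largely follow from theirs and are not a further observation. The 8 genes were also read from the same RNA pools, so their signs are not independent of each other. At the level of genes, the calls lay between stages: Alad and Cpox fell towards E10.5 in both genotypes, and Urod rose in the wild type.

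**Figure D1:**
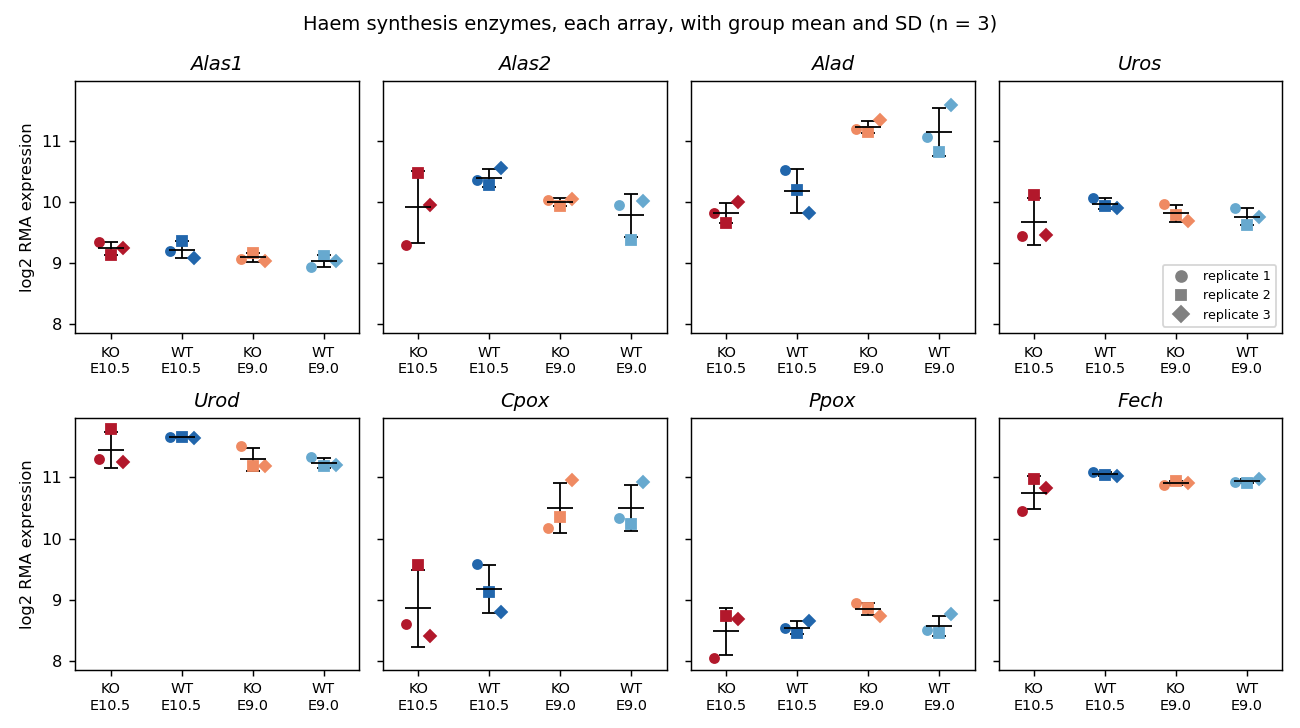
Log2 RMA level of each haem enzyme, by its brightest probe set, on every array: 1 panel per gene, groups along the horizontal axis, a marker per array with its shape giving the replicate number, and lines for the group mean and SD (n = 3). Cpox and Alad sit lower in both E10.5 groups than in both E9.0 groups, and Alas2 spreads from 9.30 to 10.48 over the 3 knockout E10.5 arrays.

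The first step is the rate-limiting one. Alas1, the form found in most tissues, had levels of 9.35, 9.13 and 9.24 in knockout E10.5 sacs, against 9.20, 9.36 and 9.08 in wild type E10.5 sacs. At E9.0 the levels were 9.07, 9.17 and 9.03 in the knockout, against 8.93, 9.12 and 9.03 in the wild type. The groups overlapped at both stages. The knockout difference was 0.03 at E10.5 (SE 0.10, 95% interval -0.19 to 0.25, limma adjusted p = 0.928) and 0.06 at E9.0 (SE 0.10, interval -0.16 to 0.28, adjusted p = 0.899). Alas1 varied the least of the 8: its 12 values spanned 0.43, a span wider than that of only 15.7% of genes. Alas1 and Setd2 lie on the same chromosome, 9, 4.28 Mb apart in GRCm38.p6, and whether this bears on the Alas1 values was not tested.

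Alas2, the form of the first step made by red blood cells, had levels of 9.30, 10.48 and 9.95 in knockout E10.5 sacs, against 10.35, 10.27 and 10.56 in wild type E10.5 sacs. At E9.0 it had 10.03, 9.93 and 10.05 in the knockout, against 9.95, 9.38 and 10.01 in the wild type. Array 1 of the knockout E10.5 group was the lowest of all 12, array 2 of that group was within the wild type values, and array 3 lay between. The spread over the knockout E10.5 arrays, an SD of 0.59, compared with an SD of 0.15 over the wild type E10.5 arrays. The difference was -0.48 at E10.5 (SE 0.24, 95% interval -1.01 to 0.04, limma adjusted p = 0.293) and 0.22 at E9.0 (SE 0.24, interval -0.30 to 0.75, adjusted p = 0.821). Set against each other, these effects differed by -0.71 (SE 0.34, interval -1.45 to 0.03), which did not pass the test (adjusted p = 0.622). The array carries a single Alas2 probe set in the annotation.

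Towards E10.5, Alas2 differed by -0.09 in the knockout (SE 0.24, adjusted p = 0.836) and by 0.61 in the wild type (SE 0.24, adjusted p = 0.0911). All wild type E10.5 arrays were above all wild type E9.0 arrays, a pattern that 22.7% of all genes had. Neither change was called. The wild type change was called with array weights (0.74, adjusted p = 0.0107) and when only the groups compared were fitted (0.61, adjusted p = 0.0317). Without array 1 of the knockout E10.5 group the stage difference in the knockout was 0.21 and the genotype difference at E10.5 was -0.18. The shared estimate of the spread was then smaller, and the wild type change was called with its value unaltered (0.61, adjusted p = 0.0265), as it was without array 2 of that group (adjusted p = 0.0350).

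ALAD joins a pair of 5-aminolevulinate molecules into porphobilinogen, the first ring of the pathway. Its levels were 9.82, 9.66 and 9.99 in knockout E10.5 sacs and 11.20, 11.15 and 11.34 in knockout E9.0 sacs. The wild type had 10.52, 10.20 and 9.81 at E10.5 and 11.06, 10.81 and 11.58 at E9.0. In each genotype every E10.5 array was below every E9.0 array, a pattern that 13.8% of all genes had in the knockout. Its share in the wild type is not given here. The fall was -1.41 in the knockout (SE 0.20, 2.65-fold, limma adjusted p = 0.000373) and -0.97 in the wild type (SE 0.20, 1.96-fold, adjusted p = 0.00388). A second, dimmer Alad probe set, 1457306_at, also fell, by 1.28 in the knockout and by 0.85 in the wild type. Both Alad calls stood whichever single array was left out.

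Between genotypes Alad was not called. At E10.5 the difference was -0.35 (SE 0.20, 95% interval -0.78 to 0.08, adjusted p = 0.360), with array 3 of the wild type, at 9.81, inside the range of the knockout. Within arrays 1 and 2 of each group it was -0.62 and called (adjusted p = 0.0333), while without array 1 of the wild type it was -0.18 (adjusted p = 0.746). At E9.0 it was 0.08 (SE 0.20, interval -0.35 to 0.51, adjusted p = 0.943). The knockout effect at E10.5 minus that at E9.0 was -0.43 (SE 0.28, adjusted p = 0.763). The dimmer probe set, 1457306_at, was not called between genotypes either, and its values differed from these. It was -0.06 at E10.5 (limma adjusted p = 0.920) and 0.37 at E9.0 (95% interval 0.0030 to 0.74, adjusted p = 0.528).

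UROS closes the linear tetrapyrrole into the ring of uroporphyrinogen III. Uros had levels of 9.44, 10.12 and 9.46 in knockout E10.5 sacs, against 10.07, 9.93 and 9.90 in wild type E10.5 sacs. At E9.0 the levels were 9.96, 9.79 and 9.69 in the knockout, against 9.90, 9.62 and 9.75 in the wild type. Arrays 1 and 3 of the knockout E10.5 group were the lowest of the 12, and array 2 of that group was the highest. The differences were -0.29 at E10.5 (SE 0.16, adjusted p = 0.353) and 0.06 at E9.0 (SE 0.16, adjusted p = 0.955), and neither stage change was called. With array 2 of the knockout E10.5 group left out, Uros was called lower at E10.5 (-0.52, adjusted p = 0.0225), so the result of this probe set at E10.5 turns on that 1 array. A second, dimmer Uros probe set, 1440535_at, had a mean of 6.25 over the 12 arrays. It differed by only -0.06 at E10.5 (limma adjusted p = 0.893) and by -0.09 at E9.0 (adjusted p = 0.922).

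UROD removes carboxyl groups from uroporphyrinogen to give coproporphyrinogen. Its levels were 11.30, 11.79 and 11.25 in knockout E10.5 sacs, against 11.66, 11.67 and 11.65 in wild type E10.5 sacs. The E9.0 levels were 11.52, 11.19 and 11.18 in the knockout, against 11.33, 11.19 and 11.20 in the wild type. The 3 wild type E10.5 arrays had an SD of only 0.01. They lay above all wild type E9.0 arrays, as for 22.7% of all genes, while the knockout groups overlapped. The wild type rise was 0.42 (SE 0.14, 1.34-fold, limma adjusted p = 0.0483), close to the threshold, and it lost its call when any of 8 of the 12 arrays was left out, with adjusted p up to 0.131. Within arrays 1 and 2 of each group it was 0.41 (adjusted p = 0.137), and after a further quantile normalisation 0.35 (adjusted p = 0.103). A second Urod probe set, 1417206_at, rose by 0.66 in the wild type (adjusted p = 0.0184), but this call was lost within arrays 1 and 2 (0.54, adjusted p = 0.129) and without any of 3 single arrays (adjusted p up to 0.0754). In that fit over probe sets the brighter set, 1443849_x_at, was not called (adjusted p = 0.0714). In the knockout the stage difference of Urod was 0.15 (SE 0.14, adjusted p = 0.502), and between genotypes it was -0.21 at E10.5 (SE 0.14, adjusted p = 0.455) and 0.06 at E9.0 (SE 0.14, adjusted p = 0.943).

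CPOX, in the space between the mitochondrial membranes, oxidises coproporphyrinogen to protoporphyrinogen. Cpox varied the most of the 8, with a span of 2.56 over the 12 arrays, wider than that of 98.3% of genes. Its levels were 8.60, 9.57 and 8.40 in knockout E10.5 sacs and 10.18, 10.36 and 10.96 in knockout E9.0 sacs. The wild type had 9.59, 9.13 and 8.80 at E10.5 and 10.33, 10.23 and 10.93 at E9.0. In each genotype every E10.5 array was below every E9.0 array, as for 13.8% of all genes in the knockout. The fall was -1.64 in the knockout (SE 0.31, 3.12-fold, limma adjusted p = 0.00241) and -1.32 in the wild type (SE 0.31, 2.50-fold, adjusted p = 0.00872). Both calls stood whichever single array was left out. Within arrays 1 and 2 of each group the wild type fall was -0.92, with an adjusted p of 0.0506.

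All 3 Cpox probe sets fell in the knockout, 1422492_at by 0.90 and the dim 1440747_at by 1.43, while in the wild type 1422493_at, the one used for the gene, was the only one of them called. In the fit over probe sets, this wild type call was lost without any of 3 single arrays (limma adjusted p up to 0.0694). It was also lost there within arrays 1 and 2 (adjusted p = 0.0608). Between genotypes the Cpox groups overlapped, with a difference of -0.32 at E10.5 (SE 0.31, 95% interval -0.99 to 0.36, adjusted p = 0.660) and of 0.0033 at E9.0 (SE 0.31, interval -0.67 to 0.68). The wide intervals leave room for differences of either sign.

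PPOX takes protoporphyrinogen to protoporphyrin in the inner mitochondrial membrane. Ppox had levels of 8.04, 8.73 and 8.68 in knockout E10.5 sacs, against 8.53, 8.45 and 8.65 in wild type E10.5 sacs. At E9.0 it had 8.94, 8.87 and 8.74 in the knockout, against 8.50, 8.45 and 8.76 in the wild type. The groups of the 2 genotypes overlapped at both stages. The difference was -0.06 at E10.5 (SE 0.16, adjusted p = 0.893) and 0.28 at E9.0 (SE 0.16, adjusted p = 0.567). In the knockout, all E10.5 arrays were below all E9.0 arrays, as for 13.8% of genes, but the change of -0.37 was not called (SE 0.16, adjusted p = 0.128). The other Ppox probe sets, 1441862_at and 1448065_at, were dim, with means of 4.29 and 3.85 over the 12 arrays, and the first of them differed at E9.0 by -0.28, the opposite sign.

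Fech codes for ferrochelatase, which inserts iron into protoporphyrin and so makes haem. Fech had levels of 10.45, 10.98 and 10.82 in knockout E10.5 sacs, against 11.09, 11.04 and 11.03 in wild type E10.5 sacs. At E9.0 it had 10.87, 10.94 and 10.91 in the knockout, against 10.93, 10.91 and 10.98 in the wild type. It was the only one of the 8 whose E10.5 groups did not overlap, with the knockout lower, a pattern that 11.3% of all genes had. The difference was -0.30 (SE 0.12, 95% interval -0.56 to -0.05), and it was not called (limma adjusted p = 0.158). With array 2 of the knockout E10.5 group left out it was -0.42 and called (adjusted p = 0.0452), and with array 1 left out it was -0.15 (adjusted p = 0.490). At E9.0 it was -0.03 (SE 0.12, interval -0.29 to 0.22).

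Among all 19 probe sets, 1 was called between genotypes at E10.5, beside 3.64% of all probe sets, and it belongs to Fech. This probe set, 1449181_at, had levels of 9.56, 9.88 and 9.89 in the knockout, against 10.31, 10.30 and 10.41 in the wild type. Every knockout array was below every wild type array, a pattern that 11.3% of all genes had by their brightest probe sets. The difference was -0.56 (SE 0.12, 95% interval -0.82 to -0.31, 1.48-fold, limma adjusted p = 0.0208). The call rests on few arrays: without array 1 of the knockout it was -0.46 with an adjusted p of 0.0801, and it was also lost without any single wild type E10.5 array or when the E9.0 arrays were left out of the fit (adjusted p = 0.0759). A further Fech probe set, 1418698_a_at, had 9.75, 10.16 and 10.15 in the knockout, against 10.37, 10.29 and 10.60 in the wild type, a difference of -0.40 that was not called (adjusted p = 0.169). The last Fech probe set, 1427696_at, was dim, with a mean of 4.41 over the 12 arrays, and differed by 0.13. At E9.0, 0 of the 19 probe sets were called, beside 0.406% of all probe sets.

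**Figure D2:**
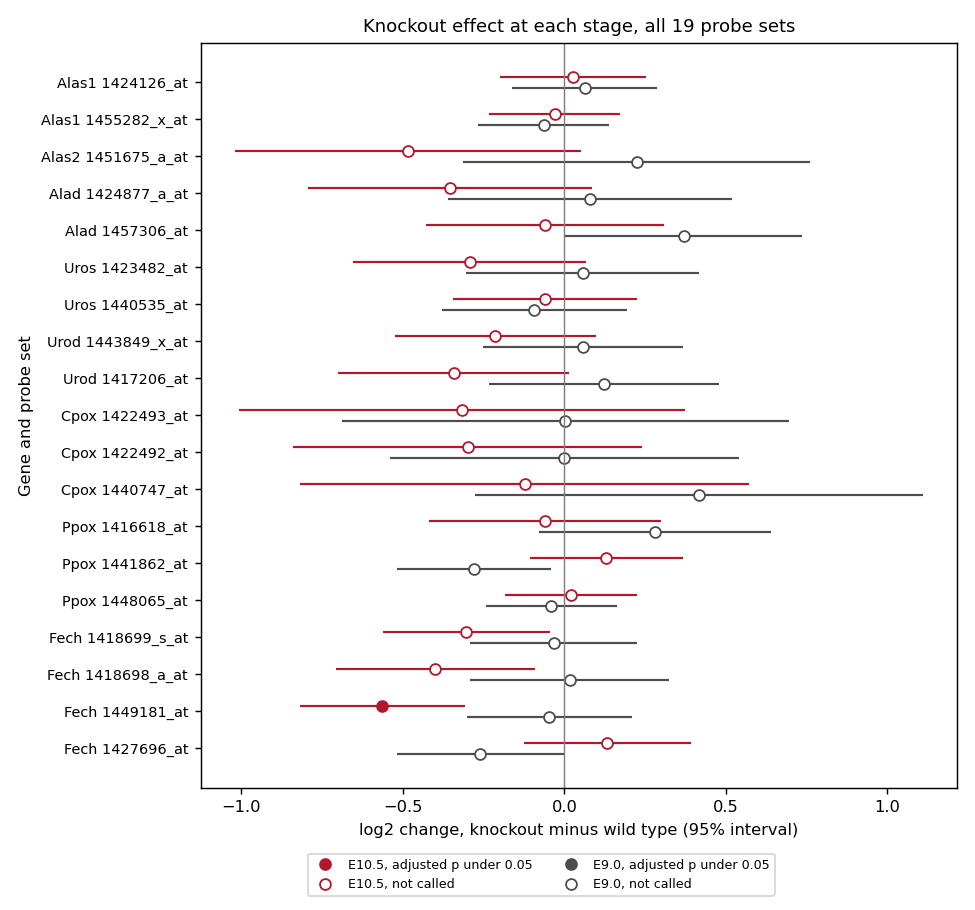
Knockout minus wild type difference in log2 level for each of the 19 probe sets at E10.5 (red) and at E9.0 (grey), with 95% intervals from limma, filled where called. The single filled point is 1449181_at of Fech at E10.5, at -0.56.

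In the comparison of stages, 2 of the 8 enzymes were called in the knockout, beside 23.6% of all genes. Both, Alad and Cpox, fell, as did 9.17% of all genes. In the wild type 3 of the 8 were called, beside 22.2% of all genes: Alad and Cpox fell, as did 8.86% of genes, and Urod rose, as did 13.4%. Of the 19 probe sets, 6 were called in the knockout and 4 were called in the wild type, beside 14.4% of all probe sets in either genotype. The 6 were both Alad sets, all 3 Cpox sets and 1449181_at of Fech (-0.45, adjusted p = 0.0230), and all of them were lower at E10.5. The Fech call was lost without any of 3 single arrays (adjusted p up to 0.0941) and when only the groups compared were fitted (adjusted p = 0.0979). The call of 1422492_at was lost without any of 4 single arrays (adjusted p up to 0.108) and with only those groups (adjusted p = 0.0693). The comparisons of genotype and of stage share arrays: the knockout E10.5 group enters both, so their estimates are not independent.

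**Figure D3:**
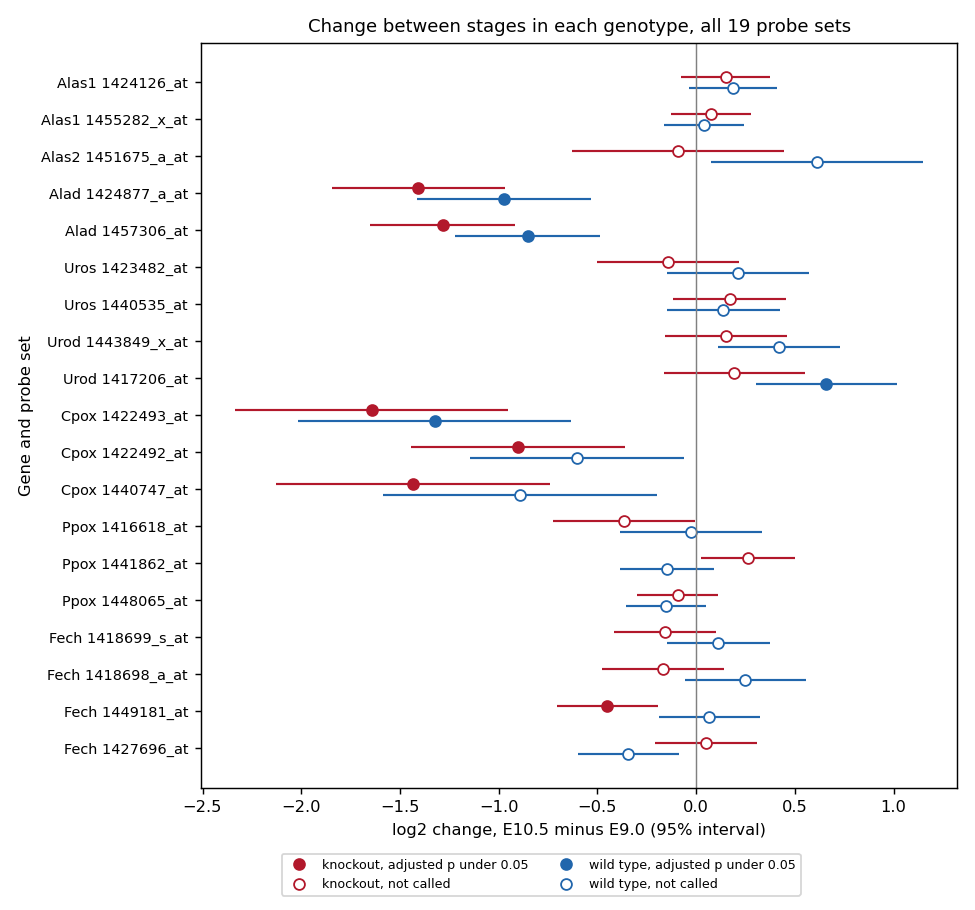
E10.5 minus E9.0 difference in log2 level for each of the 19 probe sets in the knockout (red) and the wild type (blue), with 95% intervals from limma, filled where called. All Alad and Cpox intervals lie below 0 in both genotypes, with the brightest Cpox probe set at -1.64 for the knockout and -1.32 for the wild type.

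The members that varied most were set beside the genes whose pattern over the 12 arrays was nearest, by the root mean square difference of centred log2 values. Nearest to Alas2 were Hemgn, a nuclear protein of blood-forming cells, at 0.16, Thsd7b at 0.17 and Nudt4 at 0.18. Nearest to Cpox were Klf1, a transcription factor of red blood cells, at 0.32, Cited4 at 0.35 and Hnrnpu at 0.36. Nearest to Alad were Cited4, a transcriptional co-regulator, at 0.19, Rnf26 at 0.20 and Ppargc1b at 0.21. Cited4 is thus among the 3 nearest to both Cpox and Alad, the members that fell with stage. These are descriptions of likeness over 12 arrays that also share their RNA pools.

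Red blood cell content is the measure most directly beside these enzymes. Of 25 red blood cell marker genes 21 were measured. Their mean log2 level was 7.41, 8.32 and 8.05 on the knockout E10.5 arrays, against 8.43, 8.19 and 8.31 on the wild type E10.5 arrays. At E9.0 it was 8.65, 8.45 and 8.63 in the knockout, against 8.54, 8.30 and 8.68 in the wild type. Array 1 of the knockout E10.5 group stood apart: it was the lowest of the 12 arrays for 16 of the 21 markers and for 4 of the 8 enzymes, Alas2, Uros, Ppox and Fech. The same array had the highest mean of the heart markers, 7.45.

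Of the 21 markers, 2 fell in the knockout at E10.5: Epb42, which codes for a protein of the red blood cell membrane skeleton (-1.25, adjusted p = 0.0315), and Rhd, a blood group protein of that membrane (-0.78, adjusted p = 0.0352). Of all genes, 7.28% were called at E10.5. The median over the list was -0.42, against -0.01 over all genes. Without array 1 of the knockout no marker was called and the median was -0.13, and the median over the 8 enzymes was then -0.17 in place of -0.30. With stage, 14 of the markers fell and 2 rose in the knockout, beside 23.6% of all genes called, with a median of -0.81. In the wild type 5 fell and 2 rose, beside 22.2% of all genes called, with a median of -0.31. Without array 1 of the knockout E10.5 group, 9 fell and 3 rose in the knockout, with a median of -0.57. The part of red blood cell content in the enzyme differences was not tested.

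**Figure D4:**
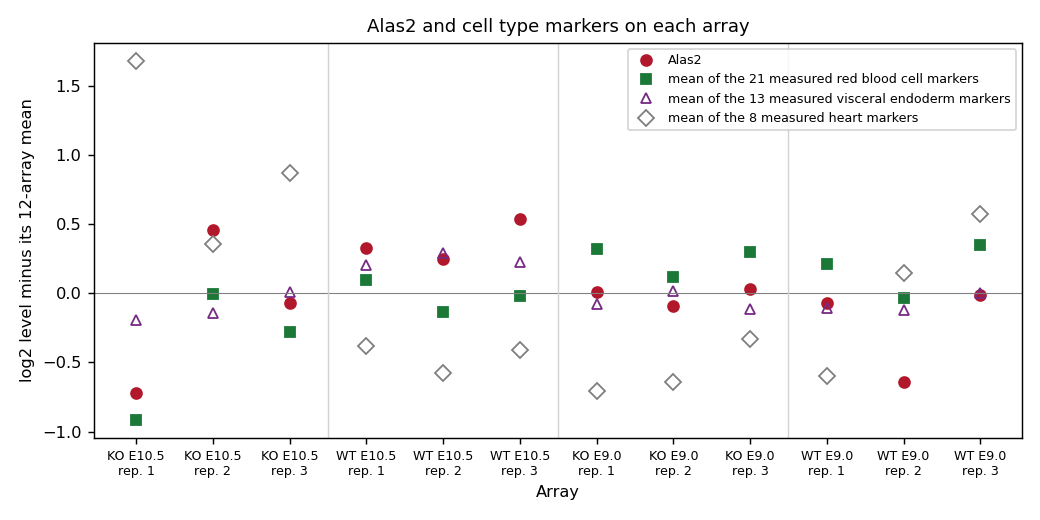
Level of Alas2 and the mean levels of 21 red blood cell, 13 visceral endoderm and 8 heart markers on each of the 12 arrays, in log2 units, each with its own mean over the 12 arrays subtracted. Array 1 of the knockout E10.5 group has the lowest Alas2 and red blood cell marker points and the highest heart marker point.

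The globins take up the haem. Of 7 globin genes measured, 0 were called in any of the 5 comparisons by limma. The embryonic globins Hba-x, Hbb-bh1 and Hbb-y had means of 13.93, 14.38 and 14.07 over the 12 arrays, close to the highest value in the table, 14.49. Probe sets that list several genes were not used, and Hbb-b1 was not measured. The other 4, Hba-a1, Mb, Ngb and Cygb, were dim by the probe sets read here, with means of 3.56 to 5.27. Probe sets this bright or this dim may show changes poorly, so 0 calls does not show that the globins were level. At E10.5 the knockout differences of Hba-x, Hbb-bh1 and Hbb-y, in that order, were -0.13, -0.20 and -0.14 (adjusted p = 0.518, 0.242 and 0.442). At an unadjusted p under 0.05, 1 of the 7 differed at E10.5, Hbb-bh1, beside 3680 of the 18193 genes. Of 13 visceral endoderm markers 2 fell in the knockout at E10.5, beside 7.28% of all genes called. They were Alb, the gene of serum albumin (-2.22), and Cubn, an endocytic receptor (-0.36), with a median of -0.25 over the list. Without array 1 of the knockout 1 was called and the median was -0.17. The mean level, into which the large Alb difference enters, was 11.68 to 11.88 for the knockout arrays and 12.08 to 12.16 for the wild type arrays. Their part in the enzyme values was not tested.

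The supply of glycine and succinyl-CoA for the first step was read from 10 genes. At E10.5, 1 of them fell in the knockout and none rose, beside 7.28% of all genes called. It was Shmt1, a cytosolic enzyme that interconverts serine and glycine (-0.60, adjusted p = 0.0123). This call was lost without array 1 of the knockout (-0.52, adjusted p = 0.0571) or array 3 of the wild type (-0.54, adjusted p = 0.0511), and within arrays 1 and 2 (-0.58, adjusted p = 0.0510). At E9.0 Shmt1 differed by -0.40, which was not called (limma adjusted p = 0.164). Slc25a38, the mitochondrial glycine carrier of red blood cells, differed at E10.5 by -0.22 (adjusted p = 0.243). With stage, 3 of the 10 fell and 2 rose in the knockout, beside 23.6% of all genes called. In the wild type 1 fell and 3 rose, beside 22.2% of all genes called. Shmt2, the mitochondrial counterpart of Shmt1, fell by 0.74 in the knockout and by 0.65 in the wild type. Ogdh, a subunit of the dehydrogenase that makes succinyl-CoA, fell in the knockout (-0.78, adjusted p = 0.00311), as did Slc6a9, a glycine transporter of the cell membrane (-0.67, adjusted p = 0.0190). The Slc6a9 call was lost without either of 2 single arrays (adjusted p up to 0.0657) and when only the groups compared were fitted (adjusted p = 0.0553). Dld, a subunit shared by 2-oxoacid dehydrogenases, rose by 0.44 in the knockout and by 0.74 in the wild type. Suclg1, a succinyl-CoA ligase subunit, rose by 0.41 in the knockout and by 0.45 in the wild type. Sucla2, another subunit of that ligase, rose by 0.27 in the wild type, a call that was lost without any of 6 single arrays (adjusted p up to 0.113). The Shmt2 call in the wild type was lost without its E10.5 array 3 (-0.56, adjusted p = 0.0515), and the Dld call in the knockout with the mean of all its probe sets (0.24, adjusted p = 0.0632).

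Mitochondrial iron and iron-sulphur cluster assembly, which feeds the last step, was read from 14 of 17 listed genes. In the knockout at E10.5, 2 of the 14 fell and none rose, beside 7.28% of all genes called. They were Iscu, the scaffold of cluster assembly (-0.39, adjusted p = 0.0350), and Nfs1, the desulfurase that supplies its sulphur (-0.34, adjusted p = 0.0364). Both calls were close to the threshold, and they were lost without any of 6 single arrays for Iscu (adjusted p up to 0.140) and without any of 7 for Nfs1 (adjusted p up to 0.129). Without array 1 of the knockout neither was called, with differences of -0.38 for Iscu and -0.31 for Nfs1. Within arrays 1 and 2 neither was called either, at -0.36 for Iscu (adjusted p = 0.0933) and -0.31 for Nfs1 (adjusted p = 0.127). At E9.0 Iscu differed between genotypes by -0.32, which was not called (limma adjusted p = 0.175). Slc25a37, the mitochondrial iron importer mitoferrin 1, fell with stage in the knockout (-0.86, adjusted p = 0.0358), a call that was lost without any single knockout E9.0 array (adjusted p up to 0.0935) and within arrays 1 and 2 (adjusted p = 0.0509). Its fall was -0.43 without array 1 of the knockout E10.5 group. Glrx5, a cluster carrier, fell by 0.53 with stage in the knockout and by 0.36 in the wild type, and the wild type call was lost without any of 4 single arrays (adjusted p up to 0.145) and within arrays 1 and 2 (adjusted p = 0.0757). Fdx1, a mitochondrial ferredoxin, rose with stage by 0.55 in the knockout and by 0.72 in the wild type. Between genotypes it differed by 0.46 at E9.0 (limma adjusted p = 0.101) and by 0.30 at E10.5 (adjusted p = 0.194), neither called. The cluster assembly factors Isca1 and Hscb rose with stage too. Isca1 rose by 0.41 in the knockout and by 0.48 in the wild type, calls lost without any of 4 and any of 3 single arrays (adjusted p up to 0.112). Hscb rose by 0.40 in the knockout and by 0.47 in the wild type, calls lost without any of 10 and any of 5 single arrays (adjusted p up to 0.193). With only the groups compared fitted, the knockout calls of Isca1 (adjusted p = 0.0632) and Hscb (adjusted p = 0.110) were lost as well. Nfs1 rose by 0.32 in the wild type, a call lost without any of 3 single arrays (adjusted p up to 0.0968) and within arrays 1 and 2 (adjusted p = 0.0698).

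Porphyrin transport and turnover of ALAS was read from 8 genes. At E10.5, Tspo, a porphyrin-binding protein of the outer mitochondrial membrane, rose in the knockout (0.42, adjusted p = 0.0245), and Abcg2, which exports porphyrins from cells, fell (-0.43, adjusted p = 0.0110). The Tspo call was lost without array 2 of the knockout (0.34, adjusted p = 0.0724) without any single wild type E10.5 array, and within arrays 1 and 2 (adjusted p = 0.0896). The Abcg2 call was lost without array 2 of the wild type (-0.40, adjusted p = 0.0531) and when only the groups compared were fitted (adjusted p = 0.0502). With stage, Tspo rose by 1.19 in the knockout and by 0.84 in the wild type. Clpx, which acts on ALAS in mitochondria, rose by 0.49 in the knockout and by 0.50 in the wild type, but with the mean of all its probe sets the changes were 0.05 for the knockout and 0.18 for the wild type, neither called. Abcb6, a porphyrin transporter, fell by 0.69 in the knockout and by 0.47 in the wild type. The wild type call of Abcb6 was lost without any of 4 single arrays (adjusted p up to 0.109). Snx3, a sorting nexin, fell by 0.52 in the knockout and by 0.45 in the wild type, and Abcg2 rose by 0.42 in the wild type. These calls of Snx3 and Abcg2 stood whichever single array was left out.

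Haem breakdown, export and sensing was read from 13 genes, and 0 were called between genotypes at either stage by limma, while 3 at E10.5 and 2 at E9.0 had an unadjusted p under 0.05, beside 3680 and 2149 of the 18193 genes. The smallest p at E10.5 belonged to Hpx, the haem-binding plasma protein haemopexin, at 0.66 (adjusted p = 0.0850). With stage, Hpx rose by 2.05 in the knockout and by 2.27 in the wild type. Flvcr1, a haem exporter, fell by 0.52 in the knockout and by 0.43 in the wild type, a wild type call that was lost without its E9.0 array 1 (-0.34, adjusted p = 0.0560). Blvra, a biliverdin reductase, rose by 0.51 in the knockout and by 0.63 in the wild type, and the knockout call was lost when only the groups compared were fitted (adjusted p = 0.0522). Slc46a1, a carrier of folate and haem, fell by 0.47 in each genotype, calls that were both lost without any of 8 single arrays (adjusted p up to 0.173) and under several other settings. Hmox1, the inducible haem oxygenase, rose in the knockout (1.38, adjusted p = 0.0265), and its stage change differed between the genotypes by 0.69 (adjusted p = 0.845). This Hmox1 call was lost without array 3 of the knockout E10.5 group (0.95, adjusted p = 0.0855) and without array 1 (1.24, adjusted p = 0.0879) or array 2 (1.18, adjusted p = 0.0967) of the knockout E9.0 group.

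Other proteins that carry or serve haem were read from 18 of 20 listed genes, a loose list that also holds enzymes with no haem of their own. In the knockout at E10.5, 3 of the 18 rose and 1 fell, beside 7.28% of all genes called. Mpo, the myeloperoxidase of myeloid cells, rose by 1.56, and Cybb, the haem-binding subunit of the phagocyte oxidase, read by a dim probe set with a mean of 3.77 over the 12 arrays, rose by 0.89. Its partner Cyba fell by 0.87. At E9.0 Cyba was not called. Its levels there were 10.70, 11.15 and 10.64 in the knockout, against 11.27, 11.30 and 11.38 in the wild type. Tdo2, a tryptophan-degrading dioxygenase, rose by 0.43, a call that was lost without any of 6 single arrays (adjusted p up to 0.114) and within arrays 1 and 2 (adjusted p = 0.0686). Within arrays 1 and 2 the Cybb difference was 0.77 (adjusted p = 0.0600). Beside these, 10 macrophage and myeloid markers, of which Mpo is one, had mean levels of 6.69 to 6.92 in the knockout and 6.53 to 6.63 in the wild type, with 4 higher and 1 lower by the test, and their part was not tested. At E9.0 a single gene of the list was called, Sqle, a flavoprotein of sterol synthesis that is not itself a haem protein (0.68, adjusted p = 0.0225), and the call was lost without any of 5 single arrays (adjusted p up to 0.115) and within arrays 1 and 2 (adjusted p = 0.0831).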

How the data were processed

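Affymetrix Mouse 430 2.0 arrays were hybridised with cRNA made from 5 µg of total yolk sac RNA, per the labels' protocols, 12 arrays in 4 groups by genotype and stage. The authors deposited log2 values. The submitters' processing notes name RMA as the tool, and its version is not given in the sources used here. RMA corrects background and makes the arrays' distributions alike, and it compresses differences of dim probe sets. Gene names came from the platform annotation: 34945 probe sets had 1 symbol, 932 had several and 9160 had none listed, and those with several or none were not named.

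From these values, linear models were fitted with limma 3.58.1 in R 4.3.3 to all 12 arrays with 1 mean per group, for 5 comparisons, with two-sided p-values adjusted by Benjamini-Hochberg over all 18193 genes or 45037 probe sets. The script was tested on simulated data first. Depth does not apply to arrays, so the 3 arrays per group limit the precision. Each p sets a difference against the spread between pools, which was estimated from all 4 groups together and moderated over all genes or probe sets. A p for 1 genotype or stage therefore also depends on the arrays of the other groups.

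The members and gene lists were chosen with earlier results of these data known. The text names the 8 enzymes and their probe sets, Setd2, and up to 4 genes of each pathway list by smallest p in each knockout comparison. It names every called gene of a pathway list with at most 5 calls in a comparison. It also names the 3 genes nearest to each of the 3 most variable enzymes, with clone and model identifiers passed over. Lists were described by counts and medians, and marker lists for the most part by these alone. Alternatives varied normalisation, probe set choice, a filter on dim genes, the variance model, array weights, the arrays fitted, a replicate block, array 3 as a batch, and each array left out.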

Additional observations from a re-analysis of the deposited data

How the results depend on the processing

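In the fit over genes, the falls of Alad and Cpox with stage kept their direction in both genotypes over the alternatives that gave a value. They also kept their calls, except that Cpox in the wild type within arrays 1 and 2 was -0.92 (adjusted p = 0.0506). The number of enzymes called between genotypes at E9.0, and for the difference between stages, was 0 under all of these alternatives. At E10.5 it was 0 of 8, but 1 (Alad) within arrays 1 and 2 and 0 to 2 without single arrays. With stage the count was 2 in the knockout (3 with array weights, where Ppox was -0.48 with an adjusted p of 0.0402, and 2 without any single array) and 3 in the wild type (1 within arrays 1 and 2, 4 with array weights, 2 to 4 without single arrays). Among the 19 probe sets, the count at E10.5 was 1, against 0 when only the groups compared were fitted, 2 within arrays 1 and 2 and 0 to 2 without single arrays. With stage it was 6 in the knockout (4 to 6 without single arrays) and 4 in the wild type, against 7 with array weights, 7 with the replicate block, 2 within arrays 1 and 2 and 2 to 6 without single arrays. The causes of these shifts were not tested, beyond the fewer arrays fitted.

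No label says that replicate numbers pair the samples. Same-numbered arrays correlated in their deviations at 0.26, 0.07 and 0.40 at E10.5 and 0.03, 0.23 and 0.24 at E9.0, all above 0 but 2 of them under the 0.1 that was set for a pairing, and 4 of the 6 were each array's best match, a hint from the data only. The replicate block left the enzyme counts at 0 for both genotype comparisons and for their difference, 2 for stage in the knockout and 3 for stage in the wild type. Over all genes it raised the calls at E9.0 to 349, against 215.

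Small differences that were not called changed sign under some settings. Between genotypes at E10.5, Alas1 was -0.0017 with the mean of all probe sets, -0.04 within arrays 1 and 2 and -0.04 to 0.10 without single arrays, and Ppox was 0.03 with the mean of all probe sets and -0.18 to 0.16 without single arrays. At E9.0, Alad ranged from -0.09 to 0.30, Urod from -0.055 to 0.115, Uros from -0.017 to 0.13 and Cpox from -0.23 to 0.22 without single arrays. Also at E9.0, Cpox was -0.01 within arrays 1 and 2, Ppox -0.013 and Uros -0.018 with the mean of all probe sets, and Fech 0.017 without _s_at and _x_at probe sets. For the difference of effects, Alas1 ranged from -0.10 to 0.037 without single arrays and Ppox was 0.043 with the mean of all probe sets. With stage in the knockout, Alas2 ranged from -0.38 to 0.21 and Urod from -0.022 to 0.26 without single arrays, and Uros was 0.015 with the mean of all probe sets. With stage in the wild type, Ppox was 0.027 with array weights, 0.015 within arrays 1 and 2 and -0.087 to 0.068 without single arrays. Among the supporting genes, Nfs1 was -0.0022 and Sucla2 -0.18 with stage in the wild type with the mean of all probe sets.

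Over all genes, the calls at E10.5 numbered 1325, against 773 with only the groups compared, 873 at or above the median level, 2081 with array 3 as a batch, and 707 without array 1 of the knockout. At E9.0 they numbered 215, against 876 with array weights, 476 with array 3 as a batch, 69 within arrays 1 and 2, 61 with only the groups compared and as few as 33 without a single array. For the difference of effects they numbered 34, against 148 with array weights, 115 with the replicate block, 91 with array 3 as a batch, 52 with robust eBayes, 0 at or above the median level and 12 to 90 without single arrays. With stage in the wild type they numbered 4044, against 6291 with array weights. Fitting only the groups compared gives no value for the difference of effects.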
